A study of Homo sapiens with 2 samples.

Results

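Host genes of small nucleolar RNAs (snoRNAs) outside the ordinary protein-coding genes were examined in MIA PaCa-2, a long-established line from a human pancreatic carcinoma. They were taken by symbol: entries named SNHG (small nucleolar RNA host gene) followed by digits only, plus GAS5, ZFAS1, EPB41L4A-AS1 and DANCR. This gave 29 of the 58698 entries of the deposited gene table, under 28 symbols, because SNHG28 is listed as 2 overlapping genes, 1 of them annotated as protein-coding. The study has 2 samples: cells with a guide against TPST2, given as TPST2 KD (sgTPST2), and cells with a guide against GFP, given as WT (sgGFP). Total RNA was sequenced after a stranded library preparation. Each group was 1 library, so there was no replicate spread to set a difference against and no test was made. The labels call sgTPST2 a knockdown; whether a culture was a clone or a pool was not given in the sources used here.

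A snoRNA host gene is transcribed as a precursor, and its snoRNAs are cut out, in most cases from introns. Box C/D snoRNAs (named SNORD) guide 2'-O-methylation and box H/ACA snoRNAs (SNORA) guide pseudouridylation, mostly of ribosomal RNA, while the related scaRNAs act on spliceosomal RNAs in Cajal bodies. The spliced exons of many hosts carry no conserved reading frame and are removed by nonsense-mediated decay when ribosomes engage them. Several hosts begin, like ribosomal protein mRNAs, with a terminal oligopyrimidine (TOP) tract, a C at the first base followed by an unbroken run of C and T, through which translation is tied to growth signals by mTOR. The level of a spliced host RNA is therefore known to depend on both transcription and translation.

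Values are FPKM, a count of sequenced fragments divided by transcript length in kb and by library size. The steps between low values put 1 FPKM at about 48.1 fragments for each kb in sgTPST2 and 42.0 in sgGFP. TPST2, the Golgi tyrosine sulfotransferase targeted by the guide, stood at 1.92 FPKM in sgTPST2 and 8.46 FPKM in sgGFP. Of 6 epithelial markers, 3 reached 1 FPKM in a library and all 3 were lower in sgTPST2. Their summed level was 139.7 FPKM in sgTPST2 and 1282 FPKM in sgGFP, and EPCAM, a defining epithelial marker, was listed at 0 in both. Markers of other cell types were counted likewise: of 5 leukocyte markers 1 reached 1 FPKM, with CD3E listed at 0 in both libraries; of 5 fibroblast markers 2 did, with a summed level of 15.4 FPKM in sgTPST2 and 47.6 in sgGFP; and of 4 endothelial markers 2 did, at 0.413 and 12.6 FPKM in sum, with PECAM1 listed at 0 in both. Their part in the results below was not tested. In bulk RNA, fewer cells of a type and less RNA per cell cannot be told apart.

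The hosts were abundant and nearly level between the libraries, with a single exception, SNHG25. Of the 29 entries, 25 reached 1 FPKM in at least 1 library, and 24 of these 25 differed by less than 1.5-fold. On the log2(FPKM + 1) scale used throughout for differences (sgTPST2 minus sgGFP), these 24 lay between -0.27 and 0.29 with a median of 0.06. SNHG25 was at 3.58. It was the 1 host at least 1.5-fold higher, and 0 of the 25 were at least 1.5-fold lower. Over all 13420 genes at 1 FPKM or more, 4.41% were 1.5-fold higher and 6.94% 1.5-fold lower, so 1 of 25 is close to the share among all genes. Among 1331 long non-coding genes the shares were 6.54% and 9.47%. At 2-fold the hosts' counts were again 1 and 0, against 1.61% and 2.93% of all genes. Including SNHG25 the median was 0.07, against 0.00 over all genes. The median size of a difference regardless of sign was 0.14 for the hosts and 0.17 for all genes. Over all genes at 5 FPKM or more, a level that 24 of the hosts reached, that size was 0.15. Differences were positive in 17 hosts and negative in 8. The authors' test rests on 1 library per group too, so a high q from it does not show that a host was unchanged. In the authors' deposited table all 25 were tested and none passed q = 0.05; the lowest q among them was 0.99965.

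**Figure D1:**
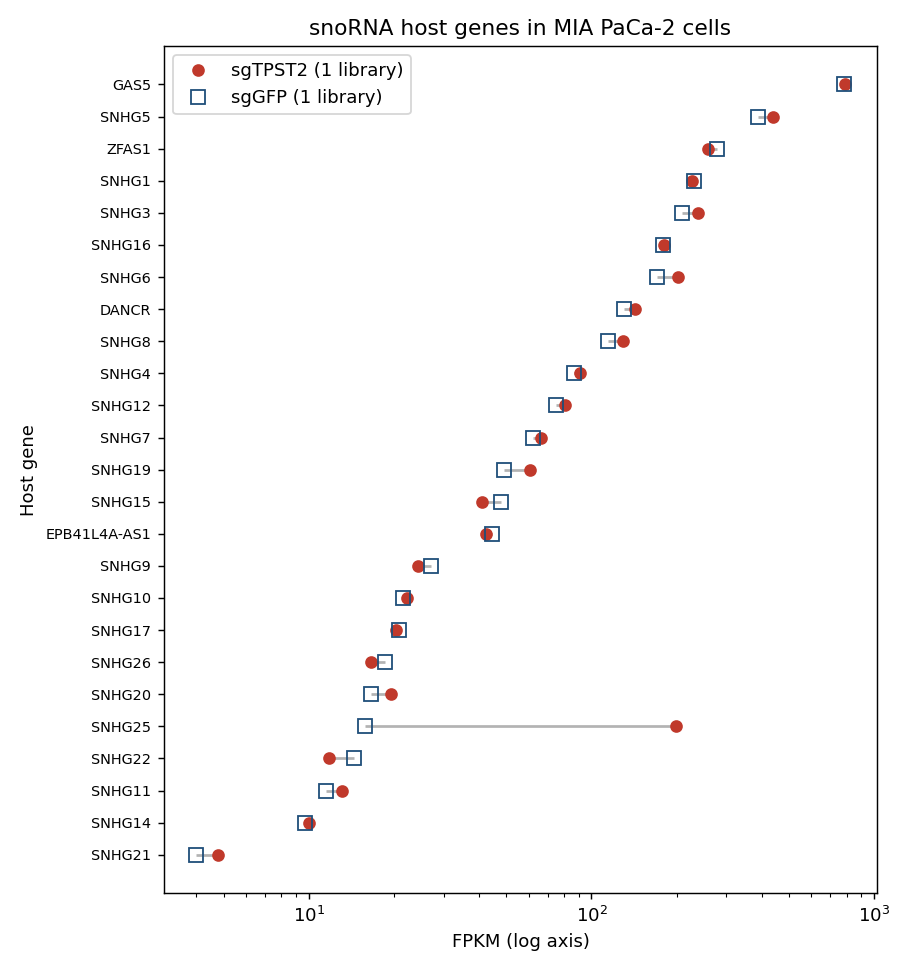
Level of each of the 25 host genes at 1 FPKM or more, as FPKM on a log axis, in sgTPST2 (filled circles) and sgGFP (open squares), 1 library each, ordered by the sgGFP value. The symbols of 24 hosts lie side by side, while SNHG25 stands at 199.7 FPKM in sgTPST2 and 15.8 FPKM in sgGFP.

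The remaining 4 entries were hardly expressed in either library. SNHG18 and SNHG27 were listed at 0 in both. The SNHG28 entries stood at 0.120 FPKM in sgTPST2 and 0.136 FPKM in sgGFP for the first, and at 0 in sgTPST2 and 0.0684 FPKM in sgGFP for the second. Among those above the filter, the level spanned 165-fold in sgTPST2 and 195-fold in sgGFP. The median host was at 66.3 FPKM in sgTPST2 and 49.1 in sgGFP, against 11.4 and 11.5 FPKM for all genes past the same filter, and 9 hosts exceeded 100 FPKM in both libraries. The summed host level was 3327 FPKM in sgTPST2 and 3005 FPKM in sgGFP; without SNHG25 it was 3127 and 2989 FPKM. GAS5 by itself made up 23.6% of that sum in sgTPST2 and 26.0% in sgGFP.

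TOP-type starts were frequent among the hosts. In the GENCODE 29 annotation, 13 of the 25 hosts (52%) had at least 1 transcript whose first base is C followed by at least 4 bases that are each C or T, read on the transcript's own strand. The same held for 8.04% of 1331 long non-coding genes, 18.1% of 11048 protein-coding genes and 85.1% of 74 ribosomal protein genes at 1 FPKM or more. Counted by transcript, the start was found in 13.1% of 244 host transcripts, 2.83% of long non-coding, 2.59% of protein-coding and 20.9% of ribosomal protein transcripts. Genes with more annotated transcripts have more chances of a match, and an annotated start need not be the start used in these cells. The first 30 bases of a matching transcript are printed for the 6 hosts with such a start that were most abundant in sgGFP. The unbroken C and T run is in capitals (GENCODE 29, GRCh38). These transcripts were picked by that start, so the likeness of their openings is no result. The start was found in 6 of 29 annotated transcripts of GAS5, 3 of 23 of SNHG5 and 3 of 10 of ZFAS1. It was found in 1 of 25 of SNHG1, 1 of 3 of SNHG3 and 2 of 8 of SNHG16.
GAS5-210 (chr1:173867960-173867989, minus strand): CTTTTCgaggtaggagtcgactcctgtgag
SNHG5-202 (chr6:85678704-85678733, minus strand): CTTTTacgtcggccttcgcgagcgtctggg
ZFAS1-201 (chr20:49278642-49278671, plus strand): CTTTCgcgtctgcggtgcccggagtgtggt
SNHG1-203 (chr11:62855450-62855479, minus strand): CTCCTgtctgcaggatttacgcgcacgttg
SNHG3-203 (chr1:28506043-28506072, plus strand): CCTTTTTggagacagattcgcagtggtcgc
SNHG16-204 (chr17:76557769-76557798, plus strand): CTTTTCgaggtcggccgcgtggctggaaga
The printed GAS5 and SNHG16 transcripts open with the same run of 6 bases, and that of SNHG5 lacks its last C. The 13 hosts with such a start had a median difference of 0.17 and the 12 without it one of 0.00; SNHG25 is among the 13. The medians with and without such a start were 0.02 and 0.01 for long non-coding genes, -0.03 and -0.04 for ribosomal protein genes, and 0.02 and 0.00 for all genes. Whether the split of the hosts differs from these was not tested.

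GAS5, named for its accumulation in growth-arrested cells and known as a decoy of the glucocorticoid receptor, was the most abundant host (chromosome 1, 173863900 to 173868882, minus strand). It stood at 786 FPKM in sgTPST2 and 781 FPKM in sgGFP, about 18818 and 16679 fragments. Its ratio was 1.01, with a 95% counting interval of 0.985 to 1.03 (exact binomial; such intervals cover counting error only and take the median annotated transcript length). SNHG5, host of SNORD50B, was second, at 438 FPKM in sgTPST2 and 387 FPKM in sgGFP (ratio 1.13, interval 1.10 to 1.17). SNHG5 was higher by more than counting error, while the spread between cultures is unknown. ZFAS1, which starts beside ZNFX1 on the opposite strand and holds SNORD12, SNORD12B and SNORD12C, was slightly lower, at 258 FPKM in sgTPST2 and 278 FPKM in sgGFP (ratio 0.930, interval 0.897 to 0.965).

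Hosts of comparable level stayed within about 1.2-fold. SNHG1, whose span holds a row of box C/D snoRNAs, was at 227 FPKM in sgTPST2 and 230 FPKM in sgGFP. Each of these snoRNA genes lies inside or partly in an exon of an annotated SNHG1 transcript. SNHG3, which carries SNORA73A and SNORA73B, was at 238 FPKM in sgTPST2 and 209 FPKM in sgGFP and so changed places with SNHG1 in the order of levels. SNHG16, host of the SNORD1 group, was at 181 FPKM in sgTPST2 and 179 FPKM in sgGFP. SNHG6 had the highest ratio among the hosts above 100 FPKM in both libraries, at 202 FPKM in sgTPST2 and 171 FPKM in sgGFP (ratio 1.18, interval 1.13 to 1.24). DANCR, a non-coding RNA known for holding back differentiation and the host of SNORA26, stood at 143 FPKM in sgTPST2 and 131 FPKM in sgGFP. SNHG8, host of SNORA24, was at 129 FPKM in sgTPST2 and 114 FPKM in sgGFP. All of these except SNHG1 and ZFAS1 had the higher value in sgTPST2, by ratios from 1.01 for GAS5 and SNHG16 to 1.18.

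Hosts between 20 and 100 FPKM were split in direction. SNHG4 was at 91.3 FPKM in sgTPST2 and 86.8 in sgGFP, SNHG12 at 80.7 and 74.7, and SNHG7 at 66.3 and 62.0. SNHG19, a short host with a single annotated transcript of 342 bases, was at 60.5 FPKM in sgTPST2 and 49.1 FPKM in sgGFP, a difference of 0.29 and the largest after SNHG25. SNHG15, host of SNORA9, was lower, at 41.2 FPKM in sgTPST2 and 47.8 FPKM in sgGFP (ratio 0.861, interval 0.797 to 0.931). EPB41L4A-AS1, which holds SNORA13, was at 42.3 FPKM in sgTPST2 and 44.5 in sgGFP. SNHG9, which begins 99 bases from the start of the ribosomal protein gene RPS2, was at 24.4 FPKM in sgTPST2 and 27.0 in sgGFP. SNHG10, host of SCARNA13, was at 22.2 FPKM in sgTPST2 and 21.5 in sgGFP. SNHG17, which holds the SNORA71 group, was at 20.3 FPKM in sgTPST2 and 20.8 in sgGFP.

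The least abundant hosts showed the same narrow range with wider counting error. SNHG22, host of SCARNA17, had the lowest difference of all 25, -0.27, at 11.8 FPKM in sgTPST2 and 14.4 FPKM in sgGFP (267 and 290 fragments; ratio 0.819, interval 0.693 to 0.974). SNHG26 was at 16.6 FPKM in sgTPST2 and 18.6 in sgGFP, while SNHG20, host of SCARNA16, was at 19.5 and 16.6. SNHG11 was at 13.1 FPKM in sgTPST2 and 11.5 in sgGFP. SNHG14, the long precursor that holds the SNORD115 and SNORD116 arrays and runs antisense to the imprinted gene UBE3A, was at 10.02 FPKM in sgTPST2 and 9.67 in sgGFP. SNHG21, the lowest, was at 4.77 FPKM in sgTPST2 and 4.002 in sgGFP on 111 and 83 fragments, and its interval of 0.890 to 1.61 spans no difference. Of the 22 hosts long enough for a counting interval, 8 lay above a ratio of 1 with their whole interval and 4 below. The same count was not made over all genes, so these counts cannot be read as particular to the hosts.

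**Figure D2:**
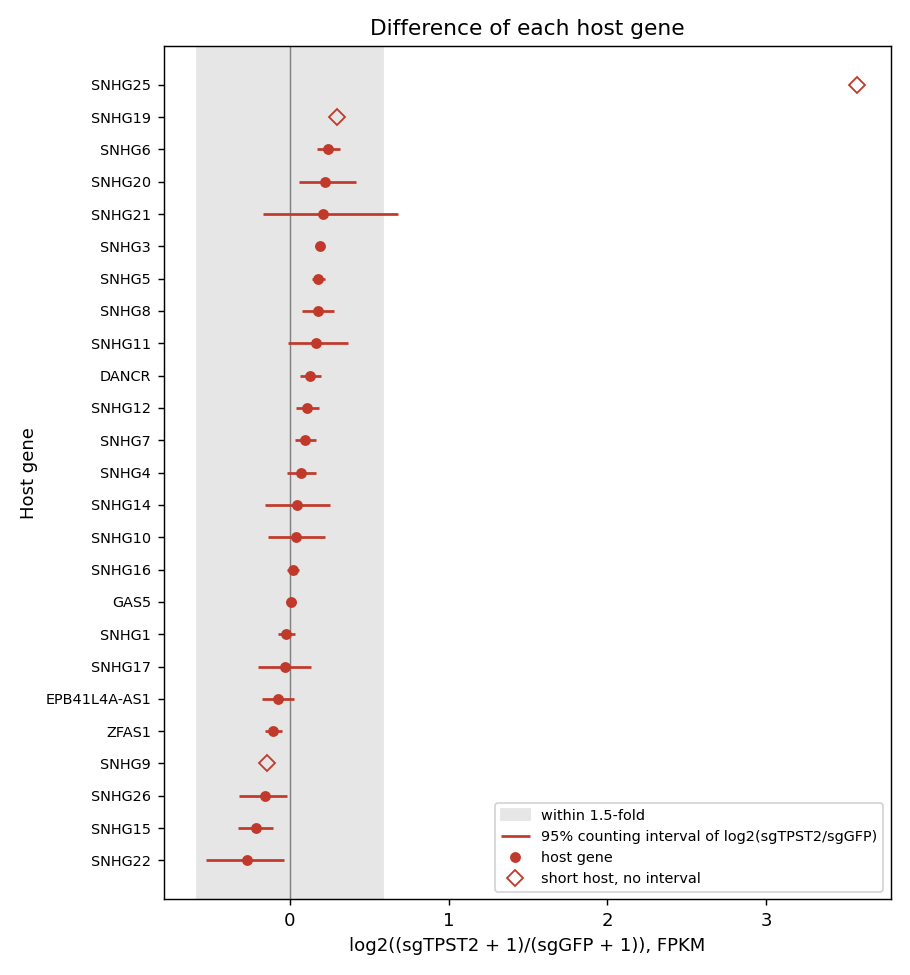
Difference of each of the 25 hosts, log2((sgTPST2 + 1)/(sgGFP + 1)) in FPKM, with the 95% counting interval of the log2 ratio as a bar where the median transcript is long enough for it; the grey band marks 1.5-fold. All hosts except SNHG25, at 3.58, lie inside the band, from -0.27 for SNHG22 to 0.29 for SNHG19.

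SNHG25 (ENSG00000266402.3, chromosome 17, 64145970 to 64146476, plus strand) was the exception. It stood at 199.7 FPKM in sgTPST2 and at 15.8 FPKM in sgGFP, a ratio of 12.6, and it ranked 7 among the hosts in sgTPST2 and 21 in sgGFP. The authors' deposited table gives it p = 0.161 and q = 0.99965. It is also the shortest host: the annotation has 2 transcripts, of 106 and 278 bases, where the length offset read from the low values (about the length of a sequenced fragment) was 190 bases in sgTPST2 and 180 bases in sgGFP. Because the shorter transcript lies below that offset, the number of fragments behind the value could not be read and no counting interval is given. The longer transcript, SNHG25-202, contains the whole of the box H/ACA snoRNA SNORA50C in its last exon, while the box C/D snoRNA SNORD104 lies in the intron. Both snoRNA genes were listed at 0 in both libraries, so reads of SNORA50C and of the exon around it cannot be told apart in these values. The spliced SNHG25-202 is shown with SNORA50C in capitals, to show how much of the host it takes up (133 of 278 bases), and SNORD104 with the C box TGATGA and the last CTGA, the D box, in capitals.
SNHG25-202 (spliced, exons chr17:64145970-64146000 and chr17:64146230-64146476): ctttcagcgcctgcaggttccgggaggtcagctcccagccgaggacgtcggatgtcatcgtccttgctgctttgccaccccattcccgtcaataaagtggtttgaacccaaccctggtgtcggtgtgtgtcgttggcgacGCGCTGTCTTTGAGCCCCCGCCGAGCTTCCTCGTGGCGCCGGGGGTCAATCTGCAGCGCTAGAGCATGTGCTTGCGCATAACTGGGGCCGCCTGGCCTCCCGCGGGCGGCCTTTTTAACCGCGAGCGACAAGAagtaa
SNORD104 (chr17:64146083-64146152, plus strand): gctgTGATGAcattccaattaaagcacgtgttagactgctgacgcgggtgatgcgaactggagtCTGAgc

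**Figure D3:**
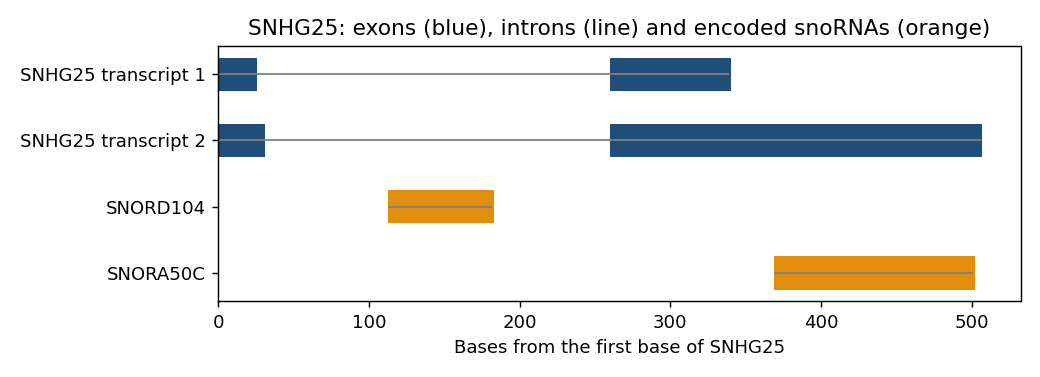
Map of SNHG25 in bases from its first base, with the exons of its 2 annotated transcripts (blue), the intron (line) and the snoRNA genes inside it (orange). SNORA50C lies within the last exon of transcript 2, and SNORD104 within the intron.

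Neither gene flanking SNHG25, both chosen after the values were seen, was 1.5-fold apart. TEX2, whose end lies 751 bases away on the opposite strand, stood at 16.7 FPKM in sgTPST2 and 15.7 FPKM in sgGFP, and ERN1, the stress sensor IRE1 of the endoplasmic reticulum, at 4.63 and 3.41 FPKM, a difference of 0.35. Short genes were also counted. Of 14 long non-coding or protein-coding genes at 5 FPKM or more whose longest transcript has at most 300 bases, 2 were at least 1.5-fold higher, SNHG25 and the RNase MRP RNA gene RMRP, and 4 were lower. At 5 FPKM or more without regard to length, 8.94% of genes were 1.5-fold apart in either direction. RMRP, named after its value was seen, was at 4043 FPKM in sgTPST2 and 2559 in sgGFP. The part of transcript length in the SNHG25 value was not tested.

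Most encoded snoRNAs had no value in this table. The spans of 26 of the 28 host symbols hold 137 annotated snoRNA or scaRNA genes on the host's strand, 84 of them in SNHG14; the snoRNAs of GAS5 have no gene entry of their own in the annotation used and were not analysed here. Of the 137, 120 were listed at 0 in both libraries and 17 in 11 hosts reached 1 FPKM. Values followed length: 2 of 104 genes under 100 bases were above 0 in a library, 8 of 23 in the class just under 140 bases, and 7 of 8 at 140 bases or more. All snoRNA and scaRNA genes of the table showed the same gradient, from 0.773% under 100 bases to 28.6% at 140 bases or more. A value of 0 is thus no measure of whether a snoRNA was present, and the box C/D class, which is short, was nearly out of reach.

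**Figure D4:**
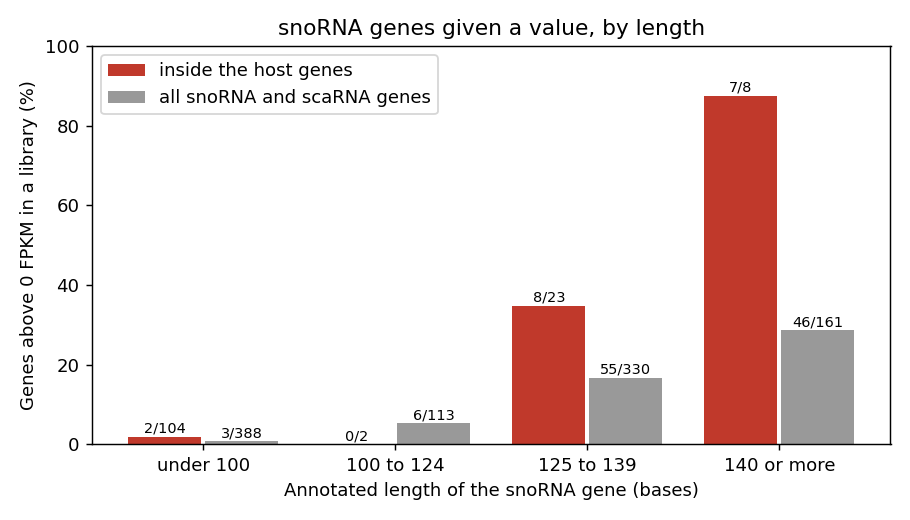
Percentage of snoRNA and scaRNA genes with a value above 0 FPKM in at least 1 library, by annotated length, for genes inside the hosts (red) and for all such genes of the table, those inside the hosts included (grey); counts stand above the bars. The share climbs with length in both sets, to 87.5% and 28.6% at 140 bases or more.

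Of the 17 encoded genes with a value, 5 were at least 1.5-fold higher and 2 lower, against 29% and 32.7% of all 107 snoRNA and scaRNA genes past the filter, so 5 of 17 is close to the share of all such genes. The median difference was 0.14. Without the 4 genes listed at 0 in 1 library, 2 of 13 were higher and 1 lower, with a median of 0.06. SNHG3 encodes the most abundant of them, the SNORA73 (U17) pair, which acts in cleavage of the ribosomal RNA precursor. SNORA73A stood at 13136 FPKM in sgTPST2 and 10189 FPKM in sgGFP, and SNORA73B at 5607 and 4018 FPKM. Both had larger differences than their host, 0.37 and 0.48 against 0.19 for SNHG3. At 206 and 204 bases they barely exceed the length offsets of 190 bases in sgTPST2 and 180 bases in sgGFP. The comparison with the host is therefore uncertain, and the part of length in these values was not tested. SNORA73A lies inside an exon of an annotated SNHG3 transcript, so reads can be shared with the host. The pair is 93.2% identical over 206 aligned positions, so reads may also be split between them with error; the last ACA, the box that names the class, is in capitals.
SNORA73A (chr1:28507366-28507571, plus strand): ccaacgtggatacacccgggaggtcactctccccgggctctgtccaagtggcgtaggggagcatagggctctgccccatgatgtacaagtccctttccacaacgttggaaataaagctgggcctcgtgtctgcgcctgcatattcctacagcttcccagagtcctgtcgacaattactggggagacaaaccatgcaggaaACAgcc
SNORA73B (chr1:28508559-28508762, plus strand): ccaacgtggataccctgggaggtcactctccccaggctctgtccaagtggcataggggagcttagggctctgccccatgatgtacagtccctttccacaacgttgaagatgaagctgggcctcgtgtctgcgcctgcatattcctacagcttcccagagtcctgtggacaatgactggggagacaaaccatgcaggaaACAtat

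The other hosts gave encoded values in both directions. SNORA74A in SNHG4, the U19 RNA that takes part in ribosomal RNA processing, was at 62.9 FPKM in sgTPST2 and 36.1 FPKM in sgGFP, a difference of 0.79, while SNHG4 itself was at 0.07. SNORA78 in SNHG9 was at 43.9 FPKM in sgTPST2 and 79.1 FPKM in sgGFP (-0.83), while SNHG9 was at -0.14. SNORA78 lies inside an exon of an annotated SNHG9 transcript, so reads can be shared with the host. At 198 and 127 bases, SNORA74A and SNORA78 are near or below the length offsets, and the part of length was not tested. The 4 SNORA71 genes of SNHG17 that had a value lay between -0.26 for SNORA71A, at 1141 FPKM in sgTPST2 and 1364 FPKM in sgGFP, and 0.06 for SNORA71D. SCARNA13 in SNHG10 was at 484 FPKM in sgTPST2 and 500.4 FPKM in sgGFP, and SCARNA16 in SNHG20 at 53.7 and 54.7 FPKM. SNORD116-16, the 1 gene of the SNHG14 arrays with a value, was at 421 FPKM in sgTPST2 and 381 in sgGFP. SNORA17B in SNHG7 is annotated as 2 overlapping genes, with 1418 and 174 FPKM in sgTPST2 against 1281 and 75.9 FPKM in sgGFP, so the split between them is uncertain.

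Zeros in 1 library made the widest gaps. SNORD12C in ZFAS1 was at 625 FPKM in sgTPST2 and is listed at 0 in sgGFP, although its host was slightly lower in sgTPST2. At 89 bases it is the shortest encoded gene with a value, and it is printed here with the C box TGATGA and the last CTGA, the D box, in capitals.
SNORD12C (chr20:49278940-49279028, plus strand): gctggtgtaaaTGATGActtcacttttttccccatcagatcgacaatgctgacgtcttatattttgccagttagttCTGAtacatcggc
SNORA74D in SNHG4 was at 5.61 FPKM in sgTPST2 and is listed at 0 in sgGFP. SNORA24 in SNHG8, named after its value was seen, was at 4.88 FPKM in sgTPST2 and is listed at 0 in sgGFP. SNORA13 in EPB41L4A-AS1 went the other way, listed at 0 in sgTPST2 and at 12.6 FPKM in sgGFP. No fold is given for these genes.

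Genes that share a start or sequence with a host were level in most pairs. Of 6 protein-coding genes that begin within 1000 bases of a host on the opposite strand, 0 were 1.5-fold apart. Over all 11048 protein-coding genes 3.16% were higher and 5.91% lower, so 0 of 6 cannot be read as particular to these neighbours. The amino-acid transporter subunit gene SLC3A2, beside SNHG1, was at 72.5 FPKM in sgTPST2 and 70.0 FPKM in sgGFP. RPS2, beside SNHG9, was at 1789 and 1872 FPKM, and ACAA2, a mitochondrial thiolase gene beside SNHG22, at 51.6 and 58.9 FPKM, both slightly lower in sgTPST2 like their host. ZNFX1, beside ZFAS1, was at 17.1 FPKM in sgTPST2 and 14.4 FPKM in sgGFP, opposite in sign to ZFAS1. TRAF7, beside SNHG19, was at 33.0 and 29.8 FPKM, and ZBTB37, beside GAS5, at 2.95 and 3.43 FPKM.

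Protein-coding genes at 1 FPKM or more overlap 10 of the hosts in 13 pairs; those named here were chosen after their values were seen. Against 5.91% of all protein-coding genes, 2 of 9 on the opposite strand were at least 1.5-fold lower. Of these, the myosin gene MYO5B, across SNHG22, was at 0.134 FPKM in sgTPST2 and 1.11 FPKM in sgGFP. On the same strand 0 of 4 were 1.5-fold apart, too few genes to set against such a share. RCC1, whose span takes in all of SNHG3, was at 92.2 FPKM in sgTPST2 and 93.5 FPKM in sgGFP, and the MATR3 entry around SNHG4 at 32.0 and 35.9 FPKM. SEC14L1, which overlaps SNHG20, was at 19.6 FPKM in sgTPST2 and 13.0 FPKM in sgGFP, a difference of 0.56, and SNHG20 was at 0.22. Exons shared between such genes can pass reads from 1 to the other, and the strand setting of the counting was not given in the sources used here.

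Hosts outside the symbol rule were counted in the same way. Of 215 protein-coding genes past the filter whose span holds a snoRNA or scaRNA gene on their strand, 3 were at least 1.5-fold higher and 9 lower (median -0.04), against 3.16% and 5.91% of all 11048 protein-coding genes. The 3 largest differences at 5 FPKM or more belonged to the phospholipase gene PLCB1, at 67.5 FPKM in sgTPST2 and 1.43 FPKM in sgGFP, KLHL23, at 9.40 and 18.5 FPKM, and AMMECR1, at 4.73 and 9.74 FPKM. Of the 9 lower, 3 are among the 4 such hosts on the short arm of chromosome 12 (ending at or before 35 Mb). Of these 3, AC006064.6, named after its value was seen, was at 0.627 FPKM in sgTPST2 and 3.13 FPKM in sgGFP. It overlaps CHD4, another of the 4, so their reads may be shared. The share among all genes of that arm was not counted here, so this cannot be read as particular to the hosts. Of 15 other non-coding hosts, 1 was higher and 3 lower (median -0.18), against 6.54% and 9.47% of long non-coding genes. Their 3 largest at 5 FPKM or more were GPRC5D-AS1, at 5.17 FPKM in sgTPST2 and 9.999 in sgGFP, SCARNA9, at 7.17 and 12.4, and AC078923.1, at 13.1 and 17.2. SCARNA9 is by its symbol a scaRNA and not a host. Its entry is annotated as antisense, so it was counted here, among the 3 lower.

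The genes of the proteins that build snoRNPs lay within 1.5-fold, except NOP58. Of the 4 box C/D core proteins, 1 was 1.5-fold lower: NOP58, at 91.6 FPKM in sgTPST2 and 138 FPKM in sgGFP. Its difference of -0.588 is only just past 1.5-fold, and it is also among the 9 lower protein-coding hosts counted above. For comparison, 5.91% of the 11048 genes coding for protein fell on the lower side and 3.16% on the higher side. NOP58 lies on chromosome 2 (202265716 to 202303666). Its partner NOP56 was at 449 FPKM in sgTPST2 and 466 FPKM in sgGFP, and the methyltransferase FBL at 102 and 113 FPKM. None of 6 box C/D assembly factors (median -0.02) and none of 6 box H/ACA proteins (median -0.03) was 1.5-fold apart. Of these, the assembly proteins RUVBL2 and PIH1D1 were at 179 and 55.6 FPKM in sgTPST2, against 190 and 63.6 FPKM in sgGFP, and NUFIP1 at 9.05 FPKM in sgTPST2 and 8.36 in sgGFP. The H/ACA protein NHP2 was at 187 FPKM in sgTPST2 and 168 FPKM in sgGFP, the H/ACA assembly factor SHQ1 at 14.6 and 12.9, and GAR1 at 4.63 and 5.33.

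The machinery that removes spliced hosts, its coding substrates and the pathway that acts on TOP starts were also counted. Of 18 nonsense-mediated decay factors, 0 were 1.5-fold higher and 1 lower (median -0.05), close to the 3.16% and 5.91% of all protein-coding genes. The lower gene was the exon junction subunit MAGOHB, on the short arm of chromosome 12, at 53.8 FPKM in sgTPST2 and 104 FPKM in sgGFP; the near-identical MAGOH, on chromosome 1 and named after its value was seen, was at 20.1 and 22.5 FPKM. The bridging factor UPF2 was at 16.5 FPKM in sgTPST2 and 13.8 in sgGFP, and EIF4A3, the helicase of the exon junction complex, at 133 and 116. Of 10 protein-coding substrates of this decay, 1 was higher and 2 lower (median 0.05), against 3.16% and 5.91% of all protein-coding genes. GADD45B was at 23.2 FPKM in sgTPST2 and 15.1 in sgGFP, GADD45A at 20.9 and 14.7, and the uridine phosphorylase gene UPP1 at 10.96 and 31.4. The other lower gene was the stress transcription factor ATF3, named after its value was seen, at 1.12 FPKM in sgTPST2 and 2.47 FPKM in sgGFP. Of 8 genes of TOP control, 0 were 1.5-fold apart (median -0.07), against the same shares of all protein-coding genes. The mTORC1 inhibitor TSC2 was at 29.5 FPKM in sgTPST2 and 20.7 in sgGFP, the translation repressor EIF4EBP2 at 17.6 and 13.9, and the S6 kinase gene RPS6KB1 at 25.6 and 29.3.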

How the data were processed

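RNA-seq of 2 MIA PaCa-2 cultures, sgTPST2 and sgGFP, was used, with 1 library per group. STAR, Cuffdiff and build hg38 are named, per the submitters' processing notes (versions, strand setting and annotation release: not given in the sources used here). For each gene and library the deposited table gives 1 value, read as FPKM, since its header names no unit and Cuffdiff reports FPKM; the authors' scaling was kept. The authors' p-value, q-value, test score and log2 fold change are deposited beside them, and the deposited log2 fold change equals log2((sgTPST2 + 1)/(sgGFP + 1)) to within 2.1e-15.

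All gene IDs matched GENCODE 29 (GRCh38), which gave coordinates, lengths and sequences. Differences are log2(FPKM + 1), over genes whose higher value was at least 1 FPKM; 1.5-fold is counted on that scale, which understates changes near 1 FPKM. Depth was read from low values of single-transcript genes over 1500 bases: multiplied by length less an offset of 190 bases in sgTPST2 and 180 in sgGFP, they fell on steps of 0.0208 and 0.0238 (FPKM times kb), with 91.4% of 1039 and 90.6% of 1019 values within 0.1 of a whole number. Fragments and exact intervals at 95% take the median transcript length and were left out where it exceeds the offset by under 200 bases. Step fitting and counting were tested on simulated data. Named genes follow a rule: every host at 1 FPKM or more, encoded snoRNAs at 5 FPKM or more, head-to-head neighbours, up to 3 genes per list, and defining cell type markers listed at 0, which were added after the values were seen; other exceptions are marked. The hosts and lists were chosen with earlier results of these data known. Some items are not reported here. Python 3.11.15, pandas 2.3.3, scipy 1.17.1.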

Additional observations from a re-analysis of the deposited data

How the results depend on the processing

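No paired analysis was possible because each group is 1 library, which also leaves no replicate to omit. A pseudocount of 0.1, no filter, a filter at 5 FPKM, an equal sum, an equal upper quartile, the median gene set to 0 and a threshold of 2-fold each left 1 host higher and 0 lower, and the host median lay between 0.04 and 0.09 under those that give a median. Scaling to the same sum moved the median of all genes to 0.012, and as deposited it was -0.00019. Leaving out SNHG25, an alternative added after the values were seen, left 0 hosts higher. Leaving out genes listed at 0 in either library left 2 encoded snoRNA genes higher and 1 lower, in place of 5 and 2, since fewer genes were counted. Depth limits the low hosts, and short transcripts limit SNHG25, SNHG19, SNHG9 and most encoded snoRNAs.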

Other observations

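Further hosts carry SNHG symbols in RefSeq and older symbols in the deposited table, so the symbol rule did not take them; they were chosen after their values were seen. LRRC75A-AS1 (SNHG29, chromosome 17, 16438822 to 16478678) was at 840.2 FPKM in sgTPST2 and 792 FPKM in sgGFP, above GAS5 in both libraries. C6orf48 (SNHG32) was at 82.0 FPKM in sgTPST2 and 71.1 FPKM in sgGFP, LINC02001 (SNHG30) at 16.5 and 14.6, and LINC00888 (SNHG33) at 10.3 and 9.44. Their differences lay between 0.09 and 0.20, inside the range of the 24 hosts that were within 1.5-fold.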
